A study of Solanum tuberosum with 12 samples.

Results

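The 200 most abundant transcripts of Wild type potato tuber periderm were followed into 3 *StRIK*-RNAi lines. A transcript's level was its deposited effective count, a value of the counting program eXpress, divided by the library total. It was scaled to CPM, the count per 1000000 counts of the library. The members were the 200 transcripts with the highest mean CPM over the 3 Wild type libraries, of 54416 transcripts in the files, after all 101 transcripts that the study listed as differentially expressed had been set aside. Of those 101, 10 would otherwise have ranked above the last member, at places 10 to 17, 20 and 208. The Wild type levels chose the members, so the levels in Wild type and every difference of a member from Wild type are given as description; where counts of calls against Wild type are printed, they stand beside those over all tested transcripts and nothing is read from them. The listed transcripts had been called by the study on the Wild type libraries and on unequal numbers of libraries of the RNAi lines, 1 of line 9, 2 of line 12 and 3 of line 47. Setting them aside therefore used some values of the lines, so tests among the lines over the members are not fully independent of the choice. It also removed transcripts called different from Wild type, so small differences of the members from Wild type follow in part from the choice. Measures in which each library ranked its own transcripts, the listed ones included, did not use it.

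The periderm is the protective skin of the tuber and consists of phellem, phellogen and phelloderm. Phellem cells deposit suberin, lignin and waxes in their walls and die at maturity, while the phellogen is the meristem that forms them. *StRIK* is the potato homologue of maize RIK, a nuclear protein with KH domains, which are known to bind RNA. All plants were potato cultivar Désirée grown in soil with 12 h of light and 12 h of dark. The groups were *StRIK*-RNAi lines 9, 12 and 47, which carry a hairpin against a fragment of *StRIK*, and the untransformed Wild type, with 3 biological replicates each. Each line is 1 transformation event, so its 3 libraries share one insertion history and do not stand for other events. RNA came from the skin of freshly harvested tubers. The skin was taken without the cortical parenchyma below it and holds mainly phellem with some phellogen. In such bulk tissue, fewer cells of a type and less RNA per cell cannot be told apart.

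Library totals ran from 18650236 to 21585122 counts. *StRIK* itself, summed over the 3 isoforms that the hairpin targets, stood at 52.0%, 88.2% and 70.5% of the Wild type mean in line 9, at 61.6%, 48.5% and 41.7% in line 12 and at 40.5%, 56.8% and 62.1% in line 47, against 104%, 96.9% and 99.3% in the Wild type libraries. Line 9 replicate 2 was thus the least silenced library. The file names carry a lane tag, whose meaning was not stated, of 6 for Wild type and for line 47 replicates 2 and 3, and of 7 for all other libraries. Lines 9 and 12 shared the tag. All their libraries differed in tag from all Wild type libraries, so against Wild type the tag and the line cannot be told apart there. The tag varied only within line 47, and a fit with the tag as a covariate estimates its part from that line alone. Counts from that fit are given below.

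The members were 0.368% of all transcripts in the files. They were counted deeply: the lowest count of any member in any library was 1847, whereas the mean count per library had a median of 75.7 over the tested transcripts. No member's identifier is paired with a gene name or description in the sources used here. Their functions, lengths and positions are therefore not given, and the tissue could not be checked against markers among them. A CPM is a share of effective counts and was not divided by transcript length here. An order between transcripts below is thus an order of effective counts and not of molecules.

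Within the members the counts were very unevenly spread. PGSC0003DMT400062188 led with a Wild type mean of 19803 ± 1242 CPM (SD, n = 3), and PGSC0003DMT400023039 followed with 14818 ± 1963 CPM. Wild type means fell along the ranks to 4422 CPM for the member of rank 9, PGSC0003DMT400058342, and then dropped to 2666 CPM for that of rank 10, PGSC0003DMT400049412. The 9 members above this gap also held ranks 1 to 9 of all transcripts. Listed transcripts that were set aside held the next places among all transcripts, so the gap lies where they were left out. The last 3 members, PGSC0003DMT400029479, PGSC0003DMT400066209 and PGSC0003DMT400053546, had Wild type means of 576, 569 and 569 CPM, and the 3 transcripts just outside, PGSC0003DMT400021124, PGSC0003DMT400027659 and PGSC0003DMT400004241, had 568, 568 and 564 CPM. The boundary at 200 was thus not a gap in level.

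**Figure D1:**
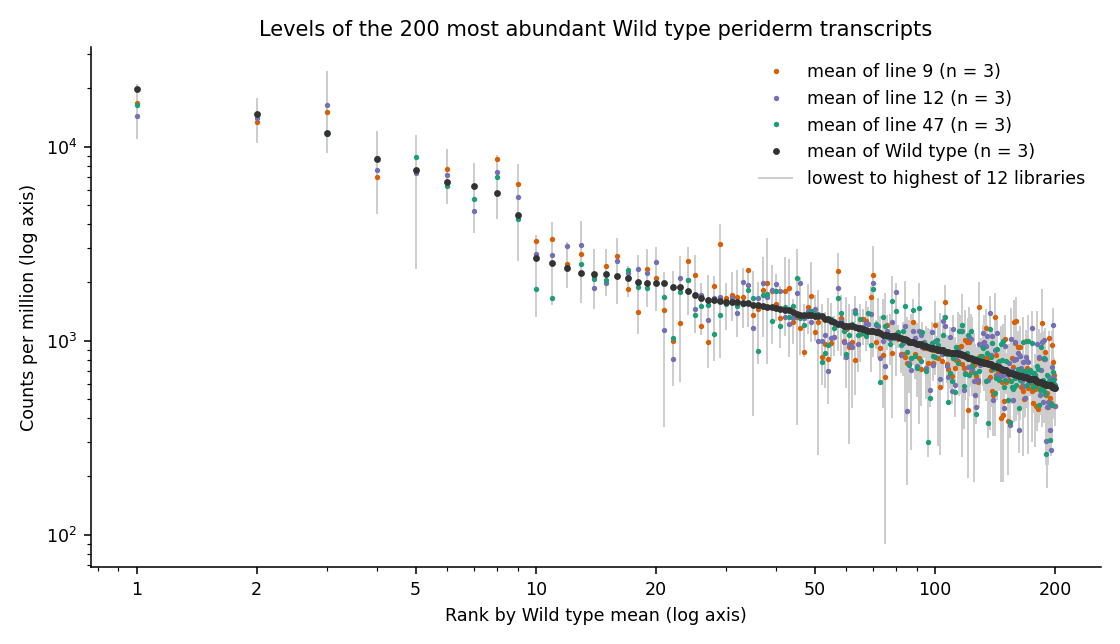
Level of each of the 200 members, in CPM on a log axis, against its rank by Wild type mean, also on a log axis; coloured points are the means of lines 9, 12 and 47, black points the Wild type means (n = 3 each), and grey bars run from the lowest to the highest of the 12 libraries. The first 9 members stand above a step between ranks 9 and 10, where listed transcripts were set aside, and the line means scatter on both sides of the Wild type curve.

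Together the 200 members held at least 26.6% of every library, and the lines held about as much as Wild type. The share was 28.5%, 29.2% and 29.5% in the libraries of line 9, 29.1%, 28.6% and 28.7% in line 12, and 27.9%, 28.6% and 26.6% in line 47, against 28.2%, 27.2% and 29.3% in Wild type. The 4 groups overlapped, with line 47 replicate 3 the lowest library of all. Mean shares were 29.0% ± 0.51 in line 9, 28.8% ± 0.227 in line 12 and 27.7% ± 1.03 in line 47, against 28.3% ± 1.07 in Wild type (SD, n = 3 each). Over all 9 RNAi libraries the mean was 28.5% ± 0.858, which is 0.262 percentage points above that of Wild type. Among the 3 lines, the difference did not pass an exact permutation test (p = 0.0679; the smallest p possible is 0.00357; adjusted over 5 such measures, 0.339), with line 9 lying 1.35 percentage points above line 47. The call and the size both depended on single libraries. The line 9 minus line 47 difference was 0.733 percentage points (p = 0.582 in the same exact test) without Wild type replicate 3, where the members were chosen anew, and 0.792 (p = 0.218) without line 47 replicate 3, but 1.63 (p = 0.0429) without line 9 replicate 1 and 1.81 (p = 0.0214) without line 47 replicate 2. The exact p was also 0.0321 when 500 transcripts were chosen and 0.0179 when the listed transcripts were kept, and it lay between 0.111 and 0.429 under the other 7 alternatives in choice, scaling or blocking. Counting error was far smaller than the spread between libraries, the 95% Wilson intervals of a library's share being at most 0.0413 percentage points wide. Such intervals cover counting error only and take the effective counts as counted reads.

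The share divided among the ranks in much the same way in each group. The first 9 members held 8.89% ± 0.111 of the library in line 9, 8.45% ± 0.671 in line 12 and 8.29% ± 0.717 in line 47, against 8.56% ± 0.839 in Wild type (SD, n = 3 each). In every library but line 12 replicate 3 this was more than any lower tier held. Among lines this share gave p = 0.411 in the exact permutation test. Members 10 to 50 held 7.36% to 7.93% in line 9, 7.27% to 7.92% in line 12 and 6.47% to 7.01% in line 47, against 6.60% to 7.59% in Wild type. In this tier every line 47 library lay below every library of lines 9 and 12, while Wild type spanned the gap between them. Members 51 to 100 held 4.72% to 5.79% in the RNAi libraries and 5.09% to 5.61% in Wild type, and members 101 to 200 held 7.09% to 7.90% in the RNAi libraries and 7.05% to 7.34% in Wild type.

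**Figure D2:**
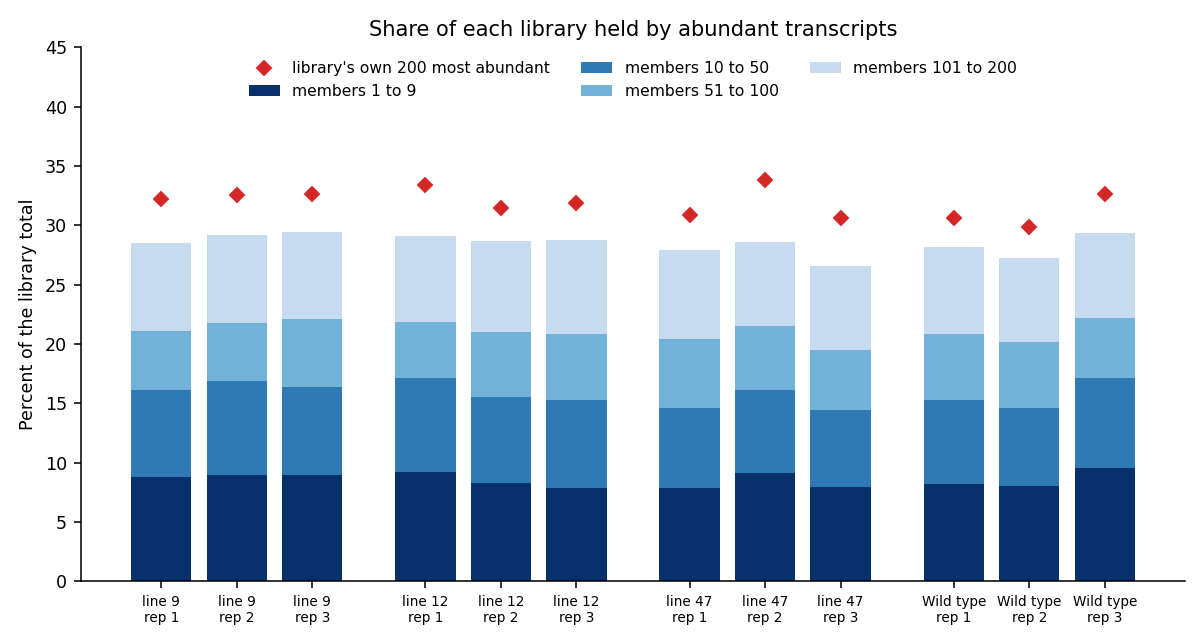
Percent of each library total held by the members, as stacked bars from 0 for 4 tiers of Wild type rank, with the share held by the library's own 200 most abundant transcripts as red diamonds; 3 libraries each of lines 9, 12 and 47 and of Wild type. Bars end between 26.6% and 29.5% and diamonds lie between 29.8% and 33.8%.

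Concentration was also measured without reference to the Wild type ranks, by letting each library rank its own transcripts, the 101 listed ones included. A library's own top 200 held 32.2%, 32.5% and 32.6% in line 9, 33.4%, 31.5% and 31.8% in line 12 and 30.85%, 33.8% and 30.7% in line 47, against 30.6%, 29.8% and 32.7% in Wild type. RNAi libraries averaged 32.2% ± 1.08 (SD, n = 9) and Wild type libraries 31.0% ± 1.47 (SD, n = 3). The difference of 1.13 percentage points did not pass a two-sided exact permutation test (p = 0.191; smallest possible 0.00909; adjusted over 3 measures, 0.573). It was 0.53 percentage points with an exact permutation p of 0.582 without Wild type replicate 2, the least concentrated Wild type library, and 1.95 percentage points with an exact permutation p of 0.0364 without Wild type replicate 3, the most concentrated one. The own top 10 held 9.09% ± 0.676 in RNAi libraries and 9.00% ± 0.799 in Wild type libraries (exact permutation p = 0.873). The inverse Simpson index, the number of equally abundant transcripts that would give the same concentration, was 682 ± 86.8 in RNAi libraries and 681 ± 88.3 in Wild type (exact permutation p = 0.982). Among the lines, exact permutation p values of these 3 measures were 0.775, 0.782 and 0.664. These tests treat libraries of a line as independent.

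Outside the listed transcripts, the same transcripts largely made up the top of every library. For this overlap the listed transcripts were left out of each library's own top 200, unlike in the measures of concentration. A library's own top 200 included 164, 164 and 174 of the members in line 9, 152, 179 and 174 in line 12 and 171, 176 and 179 in line 47, against 183, 176 and 165 in Wild type, where the members had been chosen. Line 12 replicate 1 shared the fewest. In all 12 libraries 99 members ranked in the top 200, and no member was missing from the top 200 of every RNAi library. Choosing 200 transcripts by the mean over the 9 RNAi libraries in place of Wild type returned 186 of the 200 members.

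The leading transcript had its highest level in Wild type replicate 1. PGSC0003DMT400062188 stood at 20604, 14419 and 15665 CPM in line 9, at 10991, 15377 and 16838 CPM in line 12 and at 15011, 17072 and 16968 CPM in line 47, against 21129, 18668 and 19611 CPM in Wild type. Of the 9 RNAi libraries, 8 lay below every Wild type library, and line 9 replicate 1 lay between the Wild type values; the RNAi mean was 80.2% of the Wild type mean. It was the most abundant transcript in 9 of the 12 libraries. In line 9 replicate 2 and line 12 replicate 1 that place went to PGSC0003DMT400037627, and in line 47 replicate 2 to PGSC0003DMT400023039.

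The transcripts of ranks 2 and 3 behaved differently from each other. PGSC0003DMT400023039 ranged from 10490 to 17816 CPM in RNAi libraries and from 12782 to 16699 CPM in Wild type, and the RNAi mean was 94.5% of the Wild type mean. PGSC0003DMT400037627 had 10655, 18933 and 15618 CPM in line 9, 24560 CPM in line 12 replicate 1 with 13866 and 10665 CPM in the other line 12 libraries, and 9637, 13356 and 11770 CPM in line 47, against 9854, 9312 and 16092 CPM in Wild type. Its value in line 12 replicate 1 was the highest of any transcript in any library, and its groups overlapped.

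The other 6 of the first 9 members also overlapped between RNAi and Wild type libraries. PGSC0003DMT400053423 was the most uneven: it stood at 2351 CPM in line 12 replicate 1 but at 9103 and 10582 CPM in the other line 12 libraries, and in Wild type at 4448 CPM in replicate 3 but at 9728 and 8524 CPM in replicates 1 and 2. PGSC0003DMT400079071 had the highest RNAi mean relative to Wild type of the 9, at 132%, with 9039, 8044 and 8805 CPM in line 9, 7360, 7003 and 7749 CPM in line 12 and 7175, 8554 and 5095 CPM in line 47, against 4238, 5225 and 7883 CPM in Wild type. The line 9 libraries were all above Wild type, while those of lines 12 and 47 were not all so. PGSC0003DMT400057003, PGSC0003DMT400079929, PGSC0003DMT400055632 and PGSC0003DMT400058342 had RNAi means of 90.2%, 107%, 86.4% and 122.0% of Wild type. None of the 9 was called different among the lines. Their p values from the quasi-likelihood test of edgeR, adjusted by Benjamini-Hochberg over 38364 tested transcripts, ranged from 0.642 to 0.972.

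**Figure D3:**
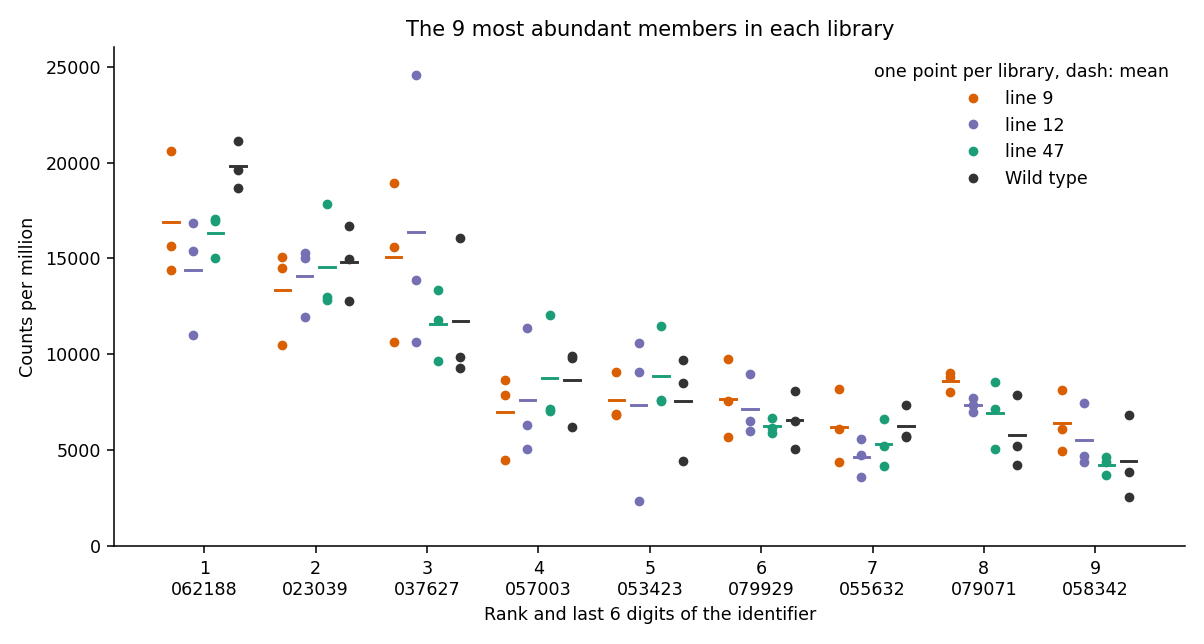
CPM, on a linear axis from 0, of the 9 most abundant members in each library, 1 point per library and a dash for the mean of 3, with line 9, line 12, line 47 and Wild type side by side at each transcript. Over all 12 libraries the points run from 10991 to 21129 CPM for the leading transcript and from 2351 to 11488 CPM for that of rank 5.

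Most members stayed near their Wild type level in each line. The listed transcripts, called different from Wild type by the study, had been set aside beforehand. Few large differences among the members thus follow in part from the choice. On the log2 scale of the edgeR fit, the median difference from Wild type was -0.04 in line 9, 0.07 in line 12 and -0.02 in line 47, with medians over all 38364 tested transcripts of 0.00, 0.00 and -0.01. The middle 50% of members lay between -0.24 and 0.19 in line 9, between -0.23 and 0.31 in line 12 and between -0.22 and 0.14 in line 47. A difference from Wild type of over 2-fold was fitted for 1, 4 and 3 members in lines 9, 12 and 47, which is 0.5%, 2% and 1.5% of members beside 9.87%, 10.7% and 7.90% of all tested transcripts. Tested transcripts reach down to 10 counts over the 12 libraries, where fitted differences scatter more. The members past 2-fold were PGSC0003DMT400063639 above Wild type in line 9, PGSC0003DMT400057528 above and PGSC0003DMT400001058, PGSC0003DMT400040186 and PGSC0003DMT400072344 below it in line 12, and PGSC0003DMT400063352, PGSC0003DMT400047344 and PGSC0003DMT400078163 below it in line 47; some of these were singled out after their values were seen.

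No member was called against Wild type at an adjusted p of 0.05 in edgeR in any line, beside 0.0756%, 0.0547% and 0.0756% of tested transcripts called in lines 9, 12 and 47. At an unadjusted p of 0.05 there were 19, 22 and 18 members, beside 10.5%, 11.2% and 5.33% of tested transcripts. DESeq2 called 4, 3 and 8 members, beside 0.662%, 1.05% and 0.519%. Members whose 3 libraries lay all above or all below those of Wild type numbered 11 and 8 in line 9 (5.48% and 6.95% of tested transcripts), 13 and 19 in line 12 (6.51% and 8.65%) and 3 and 17 in line 47 (5.52% and 4.99%). Since the Wild type libraries chose the members, nothing is read from these counts.

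The members with the lowest RNAi means relative to Wild type were PGSC0003DMT400001058, at 50.1%, and PGSC0003DMT400078163, at 61.4%. PGSC0003DMT400001058 had 1519, 788 and 683 CPM in line 9, 586, 961 and 878 CPM in line 12 and 1151, 859 and 1099 CPM in line 47, against 2133, 2301 and 1240 CPM in Wild type. Only line 9 replicate 1 reached above the lowest Wild type library, replicate 3. The members with the highest relative RNAi means were PGSC0003DMT400044674, at 179%, and PGSC0003DMT400069198, at 158%. PGSC0003DMT400044674 had 1317, 2158 and 3062 CPM in line 9, 1096, 2108 and 2750 CPM in line 12 and 2154, 2098 and 1282 CPM in line 47, against 1339, 1205 and 822 CPM in Wild type, so that 3 RNAi libraries fell within the Wild type range.

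Only 2 members had all 9 RNAi libraries on one side of all 3 Wild type libraries, 1 on each side, beside 0.571% of tested transcripts above and 0.646% below. PGSC0003DMT400004181 was above, with 1304, 1930 and 1545 CPM in line 9, 926, 1230 and 1415 CPM in line 12 and 1318, 1443 and 1237 CPM in line 47, against 917, 828 and 882 CPM in Wild type. PGSC0003DMT400007060 was below, with 594, 889 and 987 CPM in line 9, 1104, 1027 and 872 CPM in line 12 and 763, 788 and 790 CPM in line 47, against 1228, 1225 and 1552 CPM in Wild type. For both, the RNAi library nearest to the Wild type range was line 12 replicate 1.

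**Figure D4:**
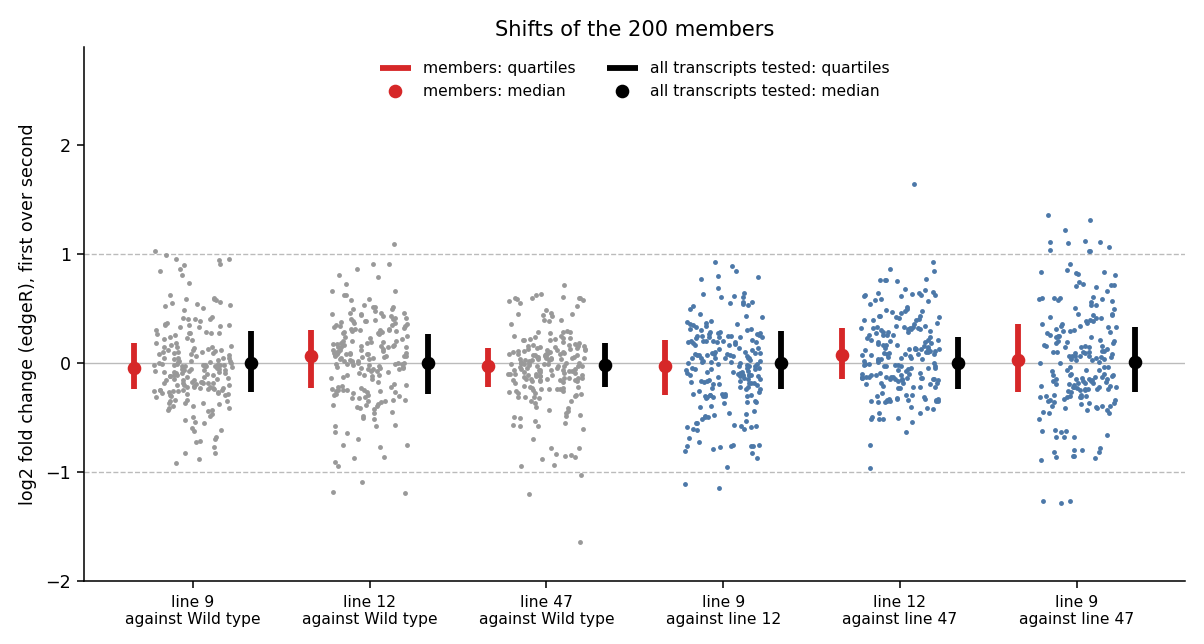
Fitted log2 fold change of each of the 200 members in 6 comparisons, first group over second: grey points for each line against Wild type, which chose the members, and blue points for the 3 pairs of lines; red marks the members' median and quartiles and black those of all 38364 tested transcripts. Member medians lie between -0.04 and 0.08, and the members' quartiles are about as wide as those of all transcripts.

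Between lines, whose values entered the choice of members only through the listed transcripts set aside, no member passed the adjusted threshold. The joint edgeR test of any difference among lines 9, 12 and 47 called 0 of 200 members, beside 0.0417% of tested transcripts. At an unadjusted p of 0.05 it held 36 members, or 18%, beside 11.3% of tested transcripts, and DESeq2 called 11 members, or 5.5%, beside 1.79%. Whether the members' deeper counts contribute to these higher shares was not tested.

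Of the pairs of lines, line 9 and line 47 had the most members with a low unadjusted p. In line 9 against line 47, edgeR called 0 members (0.0209% of tested transcripts), while 39 had an unadjusted p under 0.05 (12.6%), of which 29 were higher and 10 lower in line 9 (7.14% and 5.47%). DESeq2 called 9 (1.35%), all of them higher in line 9 (0.873%). For line 9 against line 12 these counts were 0 (0.0365%), 23 (9.69%; 8 higher and 15 lower in line 9, beside 4.99% and 4.7%) and 5 (0.764%), and for line 12 against line 47 they were 0 (0.0235%), 18 (7.44%) and 2 (0.433%). All 18 of the last comparison were higher in line 12 (4.31% of tested transcripts were higher and 3.13% lower). The libraries of 2 lines did not overlap for 49 members between lines 9 and 47. Of these, 34 were higher and 15 lower in line 9, beside 8.39% and 11% of tested transcripts. Between lines 12 and 47, 28 were higher and 8 lower in line 12, beside 6.78% and 9.32%. Between line 9 and line 12, 17 were higher and 17 lower in line 9, beside 6.86% and 7.01%. A fitted difference of over 2-fold was found for 14 members, or 7%, between lines 9 and 47, where 10.7% of all tested transcripts passed it, for 2 members between lines 9 and 12 and for 1 between lines 12 and 47. The comparisons share libraries. Replicates 2 and 3 of line 47 carry lane tag 6, whereas its replicate 1 and all libraries of lines 9 and 12 carry tag 7. With the tag as a covariate edgeR again called 0 members in each of these comparisons. The tag varied only within line 47, and the count was 0 without the covariate, so the part of the tag cannot be read from this.

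The member nearest to the threshold among lines was PGSC0003DMT400063352, of rank 96. It had 480 CPM, 1044 CPM and 772 CPM in line 9, 1165, 833 and 754 CPM in line 12 and 250 CPM, 338 CPM and 311 CPM in line 47, against 905, 871 and 1010 CPM in Wild type. Every line 47 library was lower than every other library, and line 9 replicate 1 was the lowest of the rest. Its log2 difference was 1.65 ± 0.26 (SE) for line 12 against line 47 and 1.36 ± 0.26 for line 9 against line 47. The joint edgeR test gave a Benjamini-Hochberg adjusted p of 0.105. That value was 0.0355 without line 9 replicate 1, 3.79e-06 in DESeq2 and 0.474 with the lane tag as a covariate. The tag varied only within line 47, where replicate 1, with the tag of lines 9 and 12, was the lowest library. The part of the tag cannot be read from this value. Against Wild type, a comparison that the choice of members used, the log2 difference of this member in line 47 was -1.64 ± 0.26.

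In 2 further members with low joint p values, a single line stood apart. PGSC0003DMT400076601 had 718, 725 and 578 CPM in line 9, 425, 365 and 316 CPM in line 12 and 315, 481 and 353 CPM in line 47, against 716, 718 and 622 CPM in Wild type. Line 9 lay with Wild type here and above both other lines, and the joint adjusted p was 0.192 in edgeR and 0.00102 in DESeq2. PGSC0003DMT400039880 had 948, 1027 and 1120 CPM in line 9, 654, 588 and 699 CPM in line 12 and 604, 670 CPM and 584 CPM in line 47, against 592, 569 and 613 CPM in Wild type. Here line 9 was above all other libraries, with a joint adjusted p of 0.199 in edgeR and 3.79e-06 in DESeq2. These 3 members were singled out after their p values were seen.

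By their median distance pooled over the groups, libraries of the same group differed over the members about as much as libraries of different groups. A member's highest library exceeded its lowest by a median of 2.40-fold (quartiles 1.88 and 3.11), and by over 2-fold for 136 members, over 4-fold for 36 and under 1.5-fold for 15. The steadiest was PGSC0003DMT400077268, at 960 CPM to 1220 CPM in RNAi libraries and 954 to 1164 CPM in Wild type. The coefficient of variation within a group had a median over members of 24.3% in line 9, 19.3% in line 12 and 17.0% in line 47, against 23.0% in Wild type. The biological coefficient of variation of the edgeR fit had a median of 23.7% over members and 23.3% over all tested transcripts. Group labels accounted for a median of 34.4% of a member's variance on the log scale, beside 31.5% over all tested transcripts. With 4 groups of 3 libraries, a good part of such a share arises even without any difference between groups. The root mean square log2 difference over the members had a median of 0.608 between libraries of the same group (12 pairs) and 0.641 between libraries of different groups (54 pairs). The groups were unlike in this, with medians of 0.639 in line 9, 0.830 in line 12, 0.449 in line 47 and 0.744 in Wild type. Pairs ran from 0.248 to 0.913 in line 12, from 0.395 to 0.461 in line 47 and from 0.343 to 0.811 in Wild type. For 5 of the 12 libraries the nearest library belonged to another group. For the rest it was of the same group, although each library has far more libraries of other groups to be near.

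Much of this variation ran along one axis. The first principal component over the 200 members held 48.8% of the variance, beside 30.6% over all tested transcripts, and 102 members had negative and 98 positive weights on it. Line 12 replicate 1 had the highest score, 8.81, followed by Wild type replicate 3 at 5.45, line 9 replicate 2 at 4.79 and line 9 replicate 1 at 3.79. The other 8 libraries scored from -1.07 to -5.90, the lowest being line 47 replicate 1. Over all tested transcripts the highest were line 12 replicate 1, line 9 replicate 2, Wild type replicate 3 and line 9 replicate 1. Their scores there were 73.5, 52.0, 43.9 and 24.3, and all other libraries scored negative. The pattern is thus not particular to the members. One replicate of line 12 and one of Wild type thus stood apart from the other 2 of their group and on the same side, with line 9 split between both sides. Without these 2 libraries the first axis held 41.2%, an alternative added after the data were seen, and line 9 replicates 1 and 2 still scored 5.91 and 7.15, above all other libraries.

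The 20 members with the lowest weights, picked here by the axis itself and hence without a test, held 1.77%, 1.82% and 3.06% of the library in line 9, 0.763%, 3.03% and 3.45% in line 12 and 4.14%, 2.78% and 2.52% in line 47, against 3.27%, 3.12% and 1.30% in Wild type. The 20 members with the highest weights held 3.86%, 5.20% and 3.82% in line 9, 5.40%, 3.24% and 2.95% in line 12 and 2.27%, 3.13% and 2.79% in line 47, against 2.72%, 2.12% and 4.22% in Wild type. The 4 libraries lowest in the first set, line 12 replicate 1, Wild type replicate 3 and line 9 replicates 1 and 2, were the 4 highest in the second.

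PGSC0003DMT400046891, with the lowest weight, also had the highest Wild type coefficient of variation, 74.0%, and the widest range of all members, 19.6-fold. It had 369, 521 and 1071 CPM in line 9, 90.0, 963 and 1165 CPM in line 12 and 1764, 915 and 879 CPM in line 47, against 1634, 1416 and 165 CPM in Wild type. PGSC0003DMT400034097 followed the same order, with 367 CPM in line 12 replicate 1 and 2307 and 2634 CPM in the other line 12 libraries, against 465 CPM in Wild type replicate 3 and 1931 and 1745 CPM in the other Wild type libraries. At the other end, PGSC0003DMT400042428 had 3147, 3973 and 2363 CPM in line 9, 2513, 1297 and 1234 CPM in line 12 and 814, 1886 and 1388 CPM in line 47, against 1510 CPM, 835 CPM and 2459 CPM in Wild type. In line 12 replicate 1, 29 members stood over 2-fold below the mean of the other 2 line 12 libraries and 2 over 2-fold above it, and in Wild type replicate 3 these counts were 24 and 9. Of the members below, 17 were the same in both libraries, and none of those above were.

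**Figure D5:**
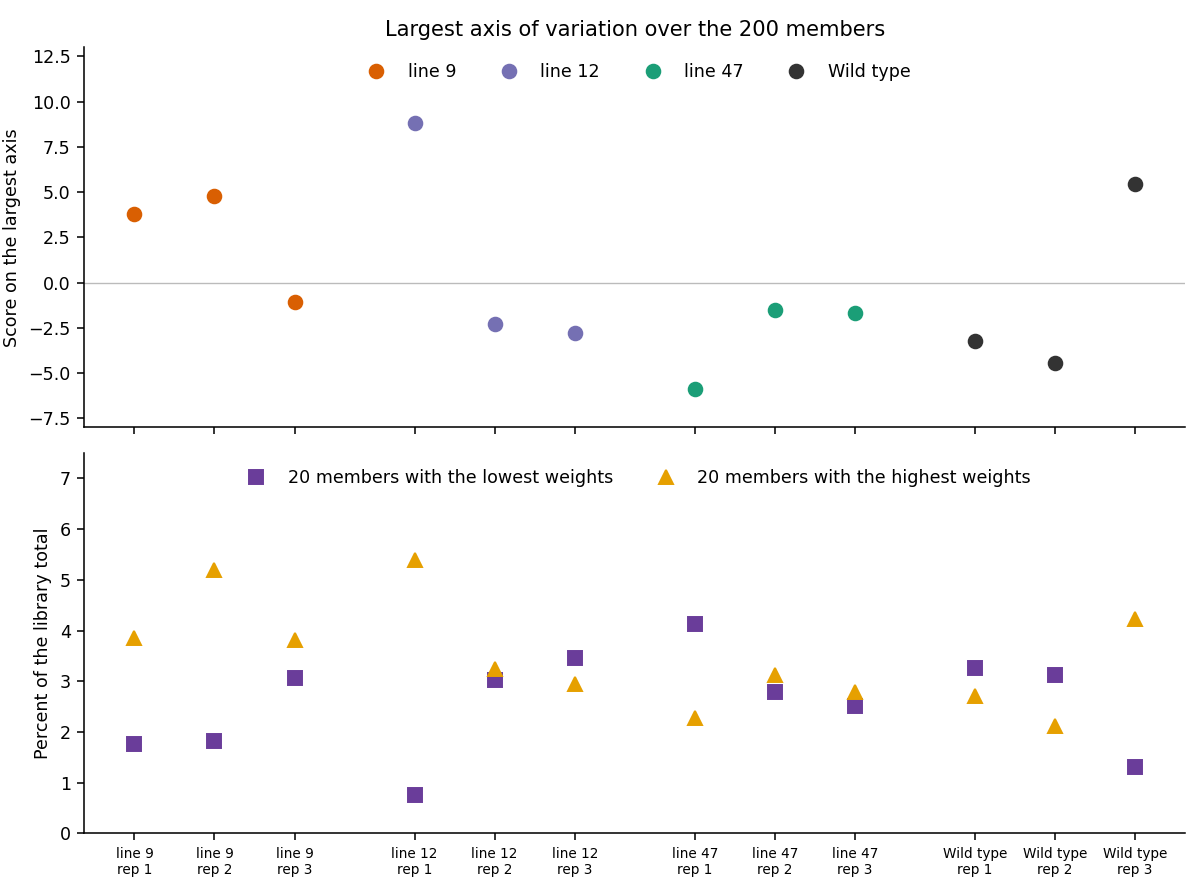
Upper panel, score of each library on the first principal component over the 200 members (log2 scale, arbitrary sign); lower panel, percent of the library total held by the 20 members with the lowest (squares) and the 20 with the highest weights (triangles), from 0. Line 12 replicate 1 and Wild type replicate 3 stand apart from the other 2 libraries of their groups in both panels.

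Some members with neighbouring identifiers kept a nearly fixed ratio to each other. Identifiers that follow each other by 1 formed 26 runs that held 63 of the 200 members, or 31.5%, with 17 runs of 2, 7 of 3 and 2 of 4, and together 8.55% of the Wild type libraries. In 35 of the 37 neighbouring pairs, the ratio of the 2 levels varied less over the 12 libraries than either level did. The SD of the log2 ratio had a median of 0.0262 over the pairs, beside a median SD of 0.38 for the log2 level of a member. For PGSC0003DMT400019450 and PGSC0003DMT400019451, the ratio stayed between 0.929 and 0.948 in all 12 libraries. The exception at the other end was the pair PGSC0003DMT400079443 and PGSC0003DMT400079444, whose ratio ran from 0.998 to 9.14. The counter used for the deposited values divides reads that match several transcripts between them. Sequences were not examined, so the part of shared reads in these ratios was not tested, and the level of a single member of a run is given with that uncertainty. The *StRIK* isoforms that the hairpin targets also have identifiers that follow each other by 1. A run may thus hold isoforms of 1 gene, which was not tested. Counting each run once left 163 members. This need not be a count of genes, since close identifiers with a gap, such as PGSC0003DMT400066567 and PGSC0003DMT400066569, were not joined. The counts of members in the comparisons above take each member of a run singly. The runs PGSC0003DMT400029066 to PGSC0003DMT400029068 and PGSC0003DMT400005970 to PGSC0003DMT400005972 were thus counted by member among those past 2-fold between lines 9 and 47. Of the members numbered from PGSC0003DMT400034084 to PGSC0003DMT400034100 there were 8, of which 7 were among the 20 lowest weights on the first axis. They held 0.352%, 0.595% and 1.01% of the library in line 9, 0.272%, 1.16% and 1.25% in line 12 and 1.48%, 0.996% and 0.780% in line 47, against 0.946%, 0.936% and 0.356% in Wild type.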

How the data were processed

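Periderm RNA of 12 libraries, 3 each of *StRIK*-RNAi lines 9, 12 and 47 and of Wild type, was sequenced on an Illumina HiSeq 2000. The authors checked reads with FastQC 0.11.2, aligned them with Bowtie 2 to transcripts of the *S. tuberosum* Group Phureja genome, and deposited estimated counts (effective counts) from eXpress 1.5.1. Grouping followed the sample titles. Counts were rounded, filtered at 10 over the 12 libraries (38364 of 54416 transcripts) and fitted with edgeR 4.0.16 in R 4.3.3: TMM scaling, 1 mean per group, quasi-likelihood tests and Benjamini-Hochberg adjustment at 0.05. The authors' own tool was not used here. Shares were compared by exact permutation tests in Python 3.11.15 with scipy 1.17.1. Scripts were tested on simulated data. Members and lists were chosen with earlier results of these data known.

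Named members were the first 10 by Wild type mean, those called among lines by lowest p (none was called), the highest and lowest RNAi to Wild type ratios, the highest Wild type coefficients of variation and those at the boundary; others are said to be picked after their values were seen. Alternatives were DESeq2 1.42.0, RLE scaling, other count filters, a block for replicate number, a lane tag covariate, other choices of members and leaving out each library. Gene names, lengths and sequences were not used here, since no table at hand pairs them with the identifiers. The deposited files hold no length, so CPM of different transcripts are not on a molar scale.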

Additional observations from a re-analysis of the deposited data

Results flagged for a closer look

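PGSC0003DMT400049412, the member of rank 10, lay in opposite directions in 2 lines: every line 9 library was above and every line 47 library below the Wild type mean of 2666 CPM. It had 3042, 3249 and 3522 CPM in line 9, 3032, 2649 and 2693 CPM in line 12 and 1862, 2333 and 1320 CPM in line 47, against 2575, 2326 and 3096 CPM in Wild type. The log2 ratio of the means of line 9 over line 47 was 0.83. The joint test among the lines gave a Benjamini-Hochberg adjusted p of 0.369 in edgeR and 0.0483 in DESeq2. For line 9 against line 47 the edgeR adjusted p was 0.251. The member was picked for this pattern, so these values are given as a description.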

How the results depend on the processing

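Shares of tested transcripts called are given in the order: among the 3 lines; line 9 against line 12; line 12 against line 47; line 9 against line 47; and lines 9, 12 and 47 against Wild type. In edgeR they were 0.0417%, 0.0365%, 0.0235%, 0.0209%, 0.0756%, 0.0547% and 0.0756%, which is 16, 14, 9, 8, 29, 21 and 29 transcripts. DESeq2 called 1.79%, 0.764%, 0.433%, 1.35%, 0.662%, 1.05% and 0.519%, and 11, 5, 2, 9, 4, 3 and 8 members, where edgeR called 0 members. With the lane tag as a covariate they were 0.0261%, 0.0235%, 0.013%, 0.0104%, 0.0469%, 0.0182% and 0.141%. The tag varied only within line 47, so the covariate was estimated from that line alone. For lines 9 and 12 against Wild type these shares do not separate the tag from the line. Without a count filter, 1 member was called for line 47 against Wild type. The cause of these changes was not tested. The correlation of deviations was over 0.1 in 5 of 18 same-numbered pairs of libraries and in 18 of 36 pairs with different numbers. With 3 libraries per group, these values cannot show whether the replicate numbers pair the libraries. With the replicate number as a block the shares were 0.0287%, 0.013%, 0.0156%, 0.0209%, 0.0417%, 0.0287% and 0.0521%, with 0 members called, and the exact permutation p of the members' share among lines was 0.111.

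With single libraries left out, in the same order, the shares were 0.0262% to 0.123%, 0.0157% to 0.0577%, 0.0131% to 0.102%, 0.0105% to 0.0969%, 0.0445% to 0.173%, 0.0157% to 0.532% (the highest without Wild type replicate 3) and 0.0315% to 0.141%. Members called were 0 or 1 among lines (1 without line 9 replicate 1), 0 or 1 for line 12 against line 47 (1 without line 9 replicate 1 or 2) and for line 47 against Wild type (1 without line 9 replicate 1 or 2 or line 12 replicate 1), and 0 in the other comparisons. The members' share, as line 9 minus line 47, was 0.733 to 1.81 percentage points (p 0.0214 to 0.582, exact permutation test), and it was 1.46 with 500 transcripts chosen and 1.37 with the listed transcripts kept, both past 0.05. The RNAi minus Wild type difference was 0.53 to 1.95 percentage points for the own top 200, -0.151 to 0.547 for the own top 10 and -49.0 to 34.6 for the inverse Simpson index, and as line 9 minus line 47 these measures gave 0.0998 to 1.69, -0.0418 to 0.922 and -133 to -20.4. No other choice of members led to a call among lines. Of 403 alternative values of log2 ratios of named transcripts, 0 moved by more than the spread between libraries, and 17, in 11 of 31 transcripts, changed sign. Leaving out a single library or rescaling can hardly move a mean by that spread, so nothing is read from the 0. Members were counted deeply enough that the spread between libraries, not counting error, limits these comparisons.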
